A study of Homo sapiens with 12 samples.

Results

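The comparison described here is ERα(+) against ERα(-) among arrays labelled shMOF, taken from a series of 12 expression arrays of Ishikawa cells, an established line of human endometrial adenocarcinoma. Its members were chosen by their labels alone: 3 arrays of shMOF cells in the condition ERα(+) and 3 arrays of shMOF cells in the condition ERα(-), 6 of the 12 arrays. The other 6 arrays hold control cells, 3 in each condition. The series is about a feedback between MOF and ERα, and this comparison asks what the ERα condition changes where MOF was targeted. All 12 share the cell line, total RNA extracted with Trizol and biotin labelling. Neither what separates ERα(+) from ERα(-), nor the hairpin sequence, nor whether the shMOF cells are 1 clone or a pool, is given in the sources used here. Nothing says that the 3 arrays of a group came from separate cultures, so the p-values reflect array-to-array spread, part of which may be technical. The measured quantity is a log2 signal for each of 14884 named genes, and every difference below is ERα(+) minus ERα(-) on the log2 scale unless stated.

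ERα, encoded by ESR1, is a nuclear receptor that binds oestrogen and then binds DNA near its target genes, where co-activators with acetyltransferase activity help to open chromatin. In the endometrium it drives the growth phase of the cycle, and endometrioid tumours often keep it. MOF, encoded by KAT8, is the enzyme that acetylates lysine 16 of histone H4, and works inside the MSL and NSL complexes. The interferon response, which takes up much of the account below, begins when RNA sensors such as RIGI and IFIH1 detect viral or self RNA, or when interferon binds its receptor. STAT and IRF factors then switch on a shared set of antiviral genes through a promoter element called ISRE.

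The 6 shMOF arrays resembled each other as much across the conditions as within them. Their correlation across genes, which are not independent replicates, had a median of 0.9895 within groups and 0.9903 between groups. Replicate 2 of ERα(-) stood apart from its own group: its mean correlation was 0.984 with the other ERα(-) arrays and 0.992 with the ERα(+) arrays, and its closest array was ERα(+) replicate 3. For ERα(+) replicate 2 the closest array was ERα(-) replicate 2 (0.992), though its mean correlation was 0.989 with its own group and 0.983 with ERα(-). On the first principal component of the 12 arrays, which carried 36.8% of the variance, ERα(-) lay at 22.3, -18.0 and 9.68 and ERα(+) at -4.40, -29.8 and -9.85. Replicate 2 was thus the lowest of its group there in both conditions, and whether the 2 arrays share a shift was not tested. That component was computed from these same arrays with the differences between groups left in. As a covariate in a fit it therefore also takes out part of the ERα difference, and values from such a fit below are description. Among the control arrays, ERα(-) replicate 1 stood apart in genes of hypoxia and glycolysis. Their mean log2 signal was 8.44 on that array and 6.84 and 6.81 on the other 2 arrays of its group. All 4 groups share 1 estimate of spread in the fit, so that array widens the error of those genes in the shMOF comparison too. KAT8 and ESR1 did not follow the labels. KAT8 was at 6.78, 6.76 and 6.72 in ERα(-) and 6.66, 6.66 and 7.02 in ERα(+), overlapping, with a difference of 0.03 ± 0.13 (SE). Its mean was 6.77 and 6.74 in control ERα(-) and ERα(+) and 6.75 and 6.78 in the shMOF groups, so a lower KAT8 signal in the arrays labelled shMOF was not seen. ESR1 was dim, below the median gene level of 5.66. It was at 4.52, 4.39 and 4.34 in ERα(-) and 4.28, 4.27 and 4.27 in ERα(+), which runs against the label without overlap. The difference was -0.15 ± 0.12 (SE) with an unadjusted limma p of 0.256, and 5.70% of all genes were lower without overlap. The groups are therefore named by their labels throughout, and every direction below rests on those labels. The epithelial markers EPCAM (from 11.45 to 11.65) and PAX8 (from 10.56 to 10.99) were bright on the 6 arrays. Other epithelial genes were less so: KRT19 ran from 7.86 to 8.75. The 7 measured genes of the epithelial part of the endometrial list had array means from 7.60 to 8.22. The stromal markers DCN (from 1.98 to 2.23) and LUM (from 1.96 to 2.60) were near the bottom of the scale. Not all markers of other cell types were as dim: the 3 measured fibroblast genes had array means from 2.92 to 3.24. Those of the 6 measured immune genes ran from 4.79 to 5.20.

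No gene was called between ERα(+) and ERα(-). Of 14884 genes, 0 (0.00%) passed limma at a Benjamini-Hochberg adjusted p below 0.05, and the smallest adjusted p was 0.746. At an unadjusted p below 0.05 stood 793 genes (5.33%), against 744.2 that an even spread of p-values gives. Of these, 375 (2.52%) were higher in ERα(+) and 418 (2.81%) were lower. When each array was shifted to 1 median, the share of higher genes among them moved from 47.3% to 59.1%. The 3 arrays of a group lay wholly above or below those of the other in 1415 genes (9.51%), 566 higher (3.80%) and 849 lower (5.70%). Only 5 genes differed by more than 2-fold and 129 by more than 1.5-fold. The 95% interval reached a median of 0.33 to either side, and for 97.5% of genes it lay within a 2-fold change in either direction. In simulated data with the same groups, limma recovered 84% of 50 genes changed 2-fold and 36% of 50 changed 1.5-fold, with 8 false calls. There each gene was drawn independently, and 50 genes changed 3-fold and 50 changed 4-fold were also present. The arrays here share variation across genes, so these shares are not the recovery to expect from them. Over all 53617 probe sets, unnamed ones included, 0 were called and 2620 stood at an unadjusted p below 0.05, against 2680.85 for an even spread.

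**Figure D1:**
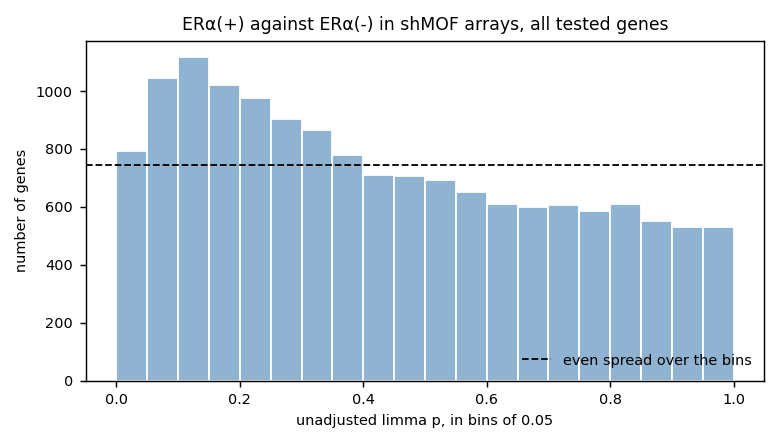
Number of genes (vertical axis) in each bin of unadjusted limma p (horizontal axis, bins of 0.05) for ERα(+) against ERα(-) in the 6 shMOF arrays, with a dashed line at the even spread of 744.2 genes a bin. The leftmost bin holds 793 genes, close to the line.

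The interferon response held a larger share of genes at an unadjusted p below 0.05 than the background did. Of 45 listed genes 35 were measured, and 28 of them lay above 0 in ERα(+), with a median difference of 0.15 against -0.03 over all genes. At an unadjusted p below 0.05, 13 members were higher (37.1%, against 2.52% of all genes) and 0 were lower, and 0 passed limma's adjusted p. This list, like the other lists, was chosen with earlier results of these data known. The shares describe its members and do not test them. In bulk RNA, fewer responding cells and less RNA per cell cannot be told apart. These members vary together from array to array and are not independent of one another. The mean signal of the list was 5.49, 5.61 and 5.39 on the ERα(-) arrays and 5.61, 5.87 and 5.88 on the ERα(+) arrays, so that ERα(-) replicate 2 and ERα(+) replicate 1 met. The 13 members were IFI44L, IFIT3, HERC6, IFIT5, DDX60, RSAD2, IFI44, HERC5, IFIH1, IFIT1, SAMD9, RIGI and IFIT2. Those beyond the first 4 were chosen for description after their values were seen.

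The promoters of 4 of these genes are shown because they carry the element through which interferon acts. The element was searched as GAAANNGAAA on both strands, where it reads TTTCNNTTTC on the reverse, in the RefSeq window from 250 bases before to 50 bases after each listed start (GRCh38.p14). Each line holds the 180 bases before the start, 5′ to 3′ along the gene, with the matches in capitals. IFIT3 has 2 listed starts.
IFI44L (chr1:78620268-78620447, plus strand): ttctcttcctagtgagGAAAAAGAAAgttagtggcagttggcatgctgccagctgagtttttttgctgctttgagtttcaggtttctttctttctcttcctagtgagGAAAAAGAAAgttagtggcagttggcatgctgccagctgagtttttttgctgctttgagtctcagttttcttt
IFIT1 (chr10:89392443-89392622, plus strand): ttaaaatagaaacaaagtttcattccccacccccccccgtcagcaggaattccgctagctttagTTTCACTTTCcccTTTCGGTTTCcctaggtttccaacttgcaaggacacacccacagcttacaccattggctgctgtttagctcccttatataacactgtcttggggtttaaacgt
IFIT3, first start (chr10:89327817-89327996, plus strand): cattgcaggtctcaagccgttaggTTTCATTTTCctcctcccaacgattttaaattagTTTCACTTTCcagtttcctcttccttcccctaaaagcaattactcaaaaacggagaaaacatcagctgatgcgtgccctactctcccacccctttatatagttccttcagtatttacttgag
IFIT3, second start (chr10:89332349-89332528, plus strand): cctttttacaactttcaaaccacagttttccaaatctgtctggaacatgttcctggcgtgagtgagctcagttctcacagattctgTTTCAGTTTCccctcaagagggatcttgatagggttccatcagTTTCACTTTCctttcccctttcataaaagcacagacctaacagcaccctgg
DDX60 (chr4:168318753-168318932, minus strand): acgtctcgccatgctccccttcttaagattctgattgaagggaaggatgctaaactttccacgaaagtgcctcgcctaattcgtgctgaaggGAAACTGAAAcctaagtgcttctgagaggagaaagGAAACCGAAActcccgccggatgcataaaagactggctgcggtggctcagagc
Each of the 5 windows held 2 matches. In IFI44L both lie in the forward direction, beginning at positions -164 and -73 from the start. Matches stood in 10 of 12 promoters available for the 13 members (83.3%), in 9 of 15 available for the other measured members (60.0%) and in 418 of 10749 promoters of tested genes (3.89%). A match describes the letters and not a bound site.

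IFI44L, an antiviral gene and a common marker of interferon exposure, showed the largest difference of the list. Its log2 signal was 4.38, 5.42 and 4.41 in ERα(-) and 5.35, 6.17 and 6.0 in ERα(+). Replicate 2 of ERα(-) lay above replicate 1 of ERα(+), so the groups overlapped, and the difference was 1.10 ± 0.26 (SE) with an unadjusted p of 9.50e-04. IFIT3, a member of the IFIT family that holds back translation of viral RNA, was at 4.61, 5.03 and 4.56 in ERα(-) and 5.17, 5.37 and 5.56 in ERα(+). All 3 ERα(+) arrays lay above all 3 ERα(-) arrays, with a difference of 0.64 ± 0.16 (SE). HERC6 encodes a HERC-family ubiquitin ligase. It was at 6.23, 6.54 and 6.18 in ERα(-) and 6.78, 6.77 and 6.87 in ERα(+), again without overlap, and differed by 0.49 ± 0.13 (SE). IFIT5, an RNA-binding member of the IFIT family, was at 4.27, 4.43 and 4.60 in ERα(-) and 4.90, 5.11 and 4.85 in ERα(+) with a difference of 0.52 ± 0.14 (SE). RSAD2, the antiviral enzyme viperin, was at 5.07, 5.36 and 4.84 in ERα(-) and 5.37, 6.24 and 6.0 in ERα(+) and differed by 0.78 ± 0.21 (SE). IFIT3, HERC6, IFIT5 and RSAD2 are the 4 of 35 members whose groups did not overlap with ERα(+) higher, against 3.80% of all genes.

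Of the 6 measured RNA sensors, 4 lay above 0, and IFIH1 and RIGI were higher at an unadjusted p below 0.05. Their list mean was 5.54, 5.53 and 5.45 in ERα(-) and 5.58, 5.89 and 5.81 in ERα(+), close to each other in ERα(-) replicate 1 and ERα(+) replicate 1. IFIH1 (MDA5), which detects long double-stranded RNA, was at 4.66, 5.50 and 4.76 in ERα(-) and 5.27, 6.12 and 5.89 in ERα(+), a difference of 0.79 ± 0.24 (SE). RIGI, which detects RNA with a 5′ triphosphate, was at 6.92, 7.52 and 7.12 in ERα(-) and 7.21, 8.17 and 7.91 in ERα(+), a difference of 0.58 ± 0.23 (SE). In both, ERα(-) replicate 2 lay above ERα(+) replicate 1. DDX60, a helicase related to these sensors, was at 4.57, 5.75 and 4.84 in ERα(-) and 5.56, 6.43 and 6.08 in ERα(+) and differed by 0.97 ± 0.26 (SE). Of the other effectors, SAMD9 differed by 0.89 ± 0.32 (SE), IFI44 by 0.84 ± 0.23 (SE), IFIT2 by 0.65 ± 0.26 (SE), HERC5 by 0.64 ± 0.18 (SE) and IFIT1 by 0.57 ± 0.19 (SE). HERC5 encodes the ligase that attaches ISG15 to proteins.

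Many well-known interferon genes were not among them. ISG15, the ubiquitin-like modifier, differed by 0.07 ± 0.19 (SE), IFITM3, which blocks viral entry, by 0.00 ± 0.14 (SE) and BST2 (tetherin) by 0.08 ± 0.20 (SE). IRF1, an interferon-induced transcription factor, had the lowest value of the list, -0.34 ± 0.18 (SE) with an unadjusted p of 0.0776. The 3 measured signalling factors had a median of 0.09 and 0 at an unadjusted p below 0.05, and the 26 measured effectors had a median of 0.19, 11 of them higher at that threshold. The sensors, 6 in number, had a median of 0.13 with 2 higher, against 2.52% of all genes at that threshold.

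In the control arrays the difference of each of these 13 genes was below 0, as it was in 50.4% of all genes. There the list's median was -0.25, and IFI44L was at 5.62, 5.27 and 5.31 in ERα(-) and 4.26, 3.97 and 4.29 in ERα(+), a difference of -1.23. The control and shMOF comparisons share no array. Across all genes, 66.9% had opposite signs in these 2 comparisons, and the 13 genes were picked by their shMOF values. The interaction, the shMOF difference minus the control difference, had a median of 0.44 over the list, with 17 members higher at an unadjusted p below 0.05 (9.35% of all genes) and 0 lower (8.69% of all genes). It was 2.33 for IFI44L and 1.42 for IFIT3, both with a limma adjusted p of 0.0696, the smallest among all genes. When control ERα(-) replicate 1 was left out, the list median was -0.18 in control arrays and 0.36 in the interaction, with 15 members higher. Without shMOF ERα(-) replicate 2, the shMOF median stayed at 0.15 with 14 members higher and 0 lower (8.75% and 8.63% of all genes in that fit).

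**Figure D2:**
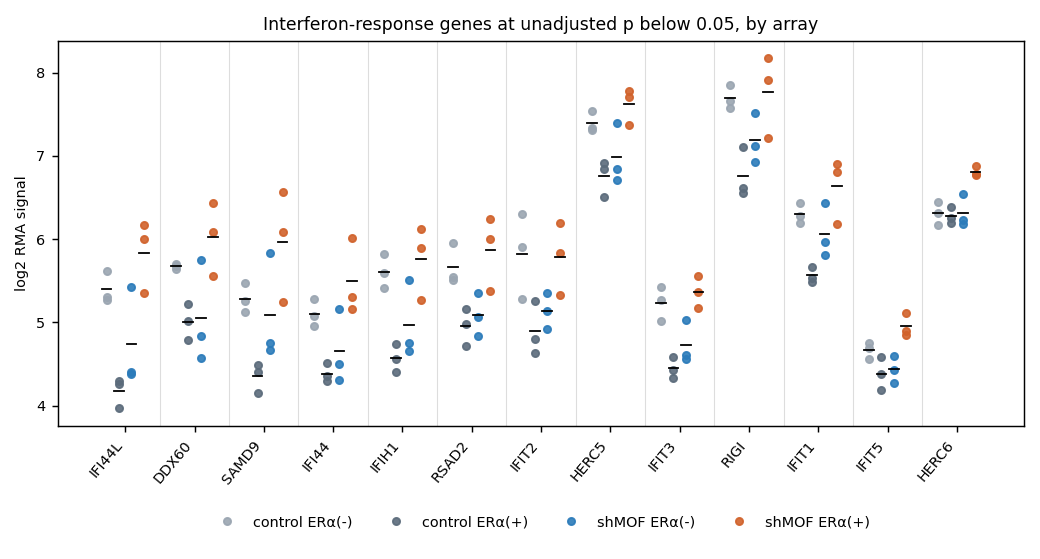
Log2 RMA signal (vertical axis) of the 13 interferon-response genes at an unadjusted p below 0.05 (horizontal axis, ordered by difference) on each of the 12 arrays. Points are single arrays coloured by group and black bars are means of 3. In shMOF arrays the ERα(+) mean lies above the ERα(-) mean in all 13 genes, and IFI44L shows the widest gap, 1.10. In control arrays the ERα(+) mean is the lower one.

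A few chemokines were also higher by value. CXCL10, which attracts T cells, was at 4.35, 5.13 and 4.52 in ERα(-) and 5.49, 5.48 and 5.23 in ERα(+), without overlap, and differed by 0.73 ± 0.19 (SE). CCL5, another T-cell attractant, was at 5.46, 5.64 and 5.51 in ERα(-) and 5.77, 5.81 and 6.16 in ERα(+) and differed by 0.38 ± 0.16 (SE). CCL2, which attracts monocytes, was dim at 2.37, 2.46 and 2.52 in ERα(-) and 3.26, 2.78 and 2.74 in ERα(+) and differed by 0.48 ± 0.19 (SE). These 3 of the 7 measured chemokines did not overlap between the groups (3.80% of all genes lay higher without overlap), and none passed the limma adjusted p. The 14 measured genes of the NF-kB and cytokine list had a median of -0.09, so the list as a whole did not lie above 0.

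Over all genes, those with the smallest p among the well expressed ones without overlap were a mixed set, in which HERC6 was the 1 interferon member. The highest by rank was OSBPL6, a lipid-binding protein of the oxysterol-binding family, at 6.10, 6.35 and 6.21 in ERα(-) and 6.59, 6.86 and 6.75 in ERα(+). Its lowest ERα(+) array exceeded its highest ERα(-) array, and it differed by 0.51 ± 0.13 (SE) with a limma adjusted p of 0.746. SOBP was at 5.73, 6.16 and 6.02 in ERα(-) and 6.40, 6.53 and 6.45 in ERα(+), a difference of 0.49 ± 0.13 (SE). ROR2, a receptor for WNT5A, was at 5.64, 5.74 and 5.86 in ERα(-) and 6.47, 6.08 and 5.96 in ERα(+), a difference of 0.43 ± 0.13 (SE). BICC1, an RNA-binding protein, differed by 0.56 ± 0.19 (SE), and SESN3, a stress-induced inhibitor of mTORC1 signalling, by 0.52 ± 0.17 (SE). The rest of the 15 were HERC6, ZNF283, LYRM7, ACTR3B, MIR4644, TCEAL9, ZNF667-AS1, ZNF844, ZNF138 and LOC644554. Their differences ran from 0.31 for ZNF844 to 0.62 for ZNF138, a zinc finger gene.

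Among the 15 genes on the lower side, MUTYH had the smallest p. MUTYH, the glycosylase that removes adenine paired with oxidised guanine, was at 6.08, 6.19 and 6.35 in ERα(-) and 5.75, 5.47 and 5.83 in ERα(+). The groups did not overlap and differed by -0.52 ± 0.13 (SE), with a limma adjusted p of 0.746. MRPL54, a protein of the mitochondrial ribosome, was at 6.14, 5.89 and 6.13 in ERα(-) and 5.60, 5.57 and 5.23 in ERα(+) and differed by -0.59 ± 0.16 (SE). CBX2, a Polycomb protein that binds methylated histone H3, was at 6.41, 6.14 and 6.26 in ERα(-) and 6.05, 5.73 and 5.93 in ERα(+) and differed by -0.37 ± 0.13 (SE). ACTR5, a subunit of the INO80 remodeller, differed by -0.41 ± 0.15 (SE), IER5, an immediate early gene, by -0.49 ± 0.17 (SE) and TP53I11, a p53-induced gene, by -0.41 ± 0.13 (SE). SPATC1L and C6orf15 completed the protein-coding genes, at -0.40 and -0.33.

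**Figure D3:**
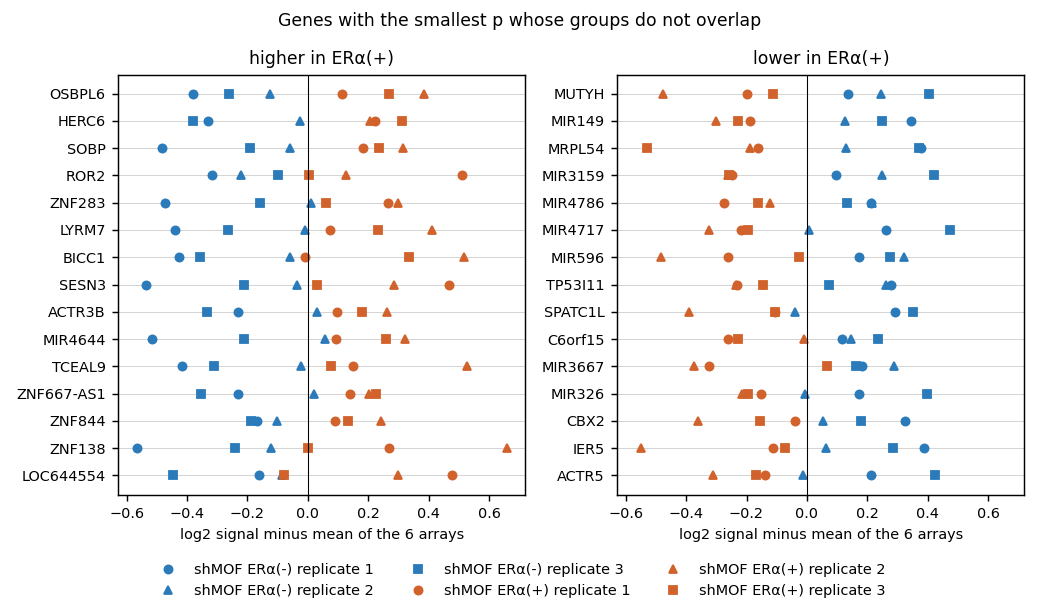
Log2 signal minus the mean of the 6 shMOF arrays (horizontal axis) for the 15 genes with the smallest p on each side (vertical axis), among genes at or above the median level whose groups do not overlap. Colours mark the condition and symbols the replicate. In many of the genes ERα(-) replicate 2, the blue triangle, lies closest to the ERα(+) arrays, as in SOBP at 6.16 against 5.73 and 6.02.

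The other 7 genes on the lower side were microRNA genes. A microRNA binds target transcripts through its seed, bases 2 to 8, and the mature sequences of the 5 named genes that follow are shown with the seed in capitals (RefSeq, GRCh38.p14), because shared seeds would mean shared targets. MIR596 and MIR3667 were the remaining ones.
miR-149-5p (chr2:240456015-240456037, plus strand): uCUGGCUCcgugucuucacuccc
miR-149-3p (chr2:240456056-240456076, plus strand): aGGGAGGGacgggggcugugc
miR-3159 (chr11:18387796-18387817, plus strand): uAGGAUUAcaagugucggccac
miR-4786-5p (chr2:239943063-239943084, minus strand): uGAGACCAggacuggaugcacc
miR-4786-3p (chr2:239943023-239943044, minus strand): uGAAGCCAgcucuggucugggc
miR-4717-5p (chr16:2274629-2274650, plus strand): uAGGCCACagccacccaugugu
miR-4717-3p (chr16:2274661-2274681, plus strand): aCACAUGGguggcuguggccu
miR-326 (chr11:75335108-75335127, minus strand): cCUCUGGGcccuuccuccag
No seed occurs more than once among these strands. The probe sets were named by gene. Which RNA gives the signal, a longer transcript or a mature strand, cannot be told from the names. MIR149 was at 6.14, 5.93 and 6.05 in ERα(-) and 5.61, 5.50 and 5.57 in ERα(+) and differed by -0.48 ± 0.13 (SE). MIR3159 was at 6.48, 6.63 and 6.81 in ERα(-) and 6.14, 6.13 and 6.13 in ERα(+) and differed by -0.51 ± 0.14 (SE). The others differed by -0.37 (MIR4786), -0.49 (MIR4717), -0.37 (MIR326), -0.51 (MIR596) and -0.42 (MIR3667). Over all 1098 microRNA genes the median was -0.03, against -0.03 over all genes. At an unadjusted p below 0.05, 38 were higher (3.46%) and 63 lower (5.74%), against 2.52% and 2.81% of all genes. The largest difference of any gene was that of MIR3127, at 5.79, 4.21 and 5.60 in ERα(-) and 3.88, 3.98 and 3.12 in ERα(+). All ERα(+) arrays lay below all ERα(-) arrays, but ERα(-) replicate 2 lay closer to them than to its own group, and the difference was -1.54 ± 0.36 (SE).

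Genes of oestrogen signalling showed no difference that passed the test. Of 36 listed oestrogen-induced genes 29 were measured, with a median of -0.12 and 8 above 0, against 45.0% of all genes. CXCL12, a chemokine induced by oestrogen in other cells, was the 1 member at an unadjusted p below 0.05. It was at 4.37, 4.56 and 4.40 in ERα(-) and 4.02, 4.03 and 4.29 in ERα(+), lower in ERα(+) by value without overlap, with a difference of -0.33 ± 0.12 (SE). The classical targets PGR (progesterone receptor), GREB1 (a co-factor of the receptor) and TFF1 (a secreted trefoil peptide) differed by -0.13 ± 0.17 (SE), 0.16 ± 0.13 (SE) and -0.22 ± 0.17 (SE). The 6 measured receptors all lay below 0, ESR2 among them at -0.21. Of the 6 measured co-activators 5 lay above 0, and CARM1, an arginine methyltransferase, lay below it at -0.21. NCOA2, NCOA1 and MED1 lay at 0.41, 0.37 and 0.25, and at 0.08, 0.06 and 0.08 once the arrays' first principal component entered the fit. A consensus oestrogen response element (GGTCANNNTGACC, which reads alike on both strands) was found in 0 of 20 available promoters of oestrogen-induced genes and in 6 of 10749 promoters of tested genes.

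The 14 genes of the MOF complexes had a median of -0.01. PHF20, the NSL subunit that reads methylated lysine, was at 5.98, 6.21 and 6.38 in ERα(-) and 6.47, 6.44 and 6.50 in ERα(+), without overlap (3.80% of all genes lay higher without overlap). It differed by 0.28 ± 0.13 (SE) with an unadjusted limma p of 0.0494. That p was 0.0519 without control ERα(-) replicate 1 and 0.0643 with the 6 shMOF arrays alone. The 3 measured MSL genes had a median of 0.09 and the 8 NSL genes of -0.03.

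The Wnt pathway, which acts through beta-catenin and is often altered in endometrial tumours, held values on both sides. Of 24 measured genes, 2 were higher and 3 lower at an unadjusted p below 0.05, against 2.52% and 2.81% of all genes, and the median was -0.01. The higher ones were ROR2, given above, and SHISA3, an inhibitor of Frizzled maturation, at 0.51 ± 0.24 (SE). DKK4, a secreted inhibitor and a target of the pathway, was dim at 4.43, 4.01 and 4.18 in ERα(-) and 3.53, 3.68 and 3.35 in ERα(+). Its groups did not overlap, and it differed by -0.69 ± 0.19 (SE). SP5, a target gene that acts as a repressor, was at 5.22, 5.10 and 4.91 in ERα(-) and 4.92, 4.16 and 4.78 in ERα(+) and differed by -0.46 ± 0.17 (SE). ZNRF3, the ligase that removes Wnt receptors from the membrane, was at 7.69, 7.14 and 7.43 in ERα(-) and 7.23, 6.80 and 7.03 in ERα(+) and differed by -0.40 ± 0.16 (SE). LGR5, a stem cell receptor that counters ZNRF3, was at 5.26, 7.84 and 5.78 in ERα(-) and 7.68, 7.39 and 6.82 in ERα(+). ERα(-) replicate 2 was its highest array, and the difference was 1.0 ± 0.51 (SE) over all arrays and 1.77 without that array.

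Among the large families, the ZNF zinc finger genes shifted a little as a whole, in step with the first principal component. MicroRNA genes, antisense RNAs and long non-coding RNAs with LINC names had medians of -0.03, -0.04 and -0.03, near the -0.03 of all genes. The 471 ZNF zinc finger genes, most of them transcriptional repressors, had a median of 0.11, with 311 above 0, against 45.0% of all genes. At an unadjusted p below 0.05, 35 were higher (7.43%) and 8 lower (1.7%), against 2.52% and 2.81% of all genes. ZNF221 was at 4.58, 4.81 and 5.01 in ERα(-) and 5.61, 5.76 and 5.30 in ERα(+), a difference of 0.76 ± 0.24 (SE), and ZNF563 at 5.11, 4.94 and 4.96 in ERα(-) and 4.31, 4.47 and 4.69 in ERα(+), a difference of -0.52 ± 0.17 (SE). Without ERα(-) replicate 2 the count of higher ZNF genes was 101 (8.75% of all genes were higher in that fit). It was 5 without ERα(-) replicate 1 (1.24% of all genes), 14 without ERα(-) replicate 3 (1.34%) and 11 without ERα(+) replicate 2 (1.22%). With that component in the fit it was 10 (1.69% of all genes) and the median 0.02. Because the component holds part of the difference between the conditions, this fit cannot tell the component from the condition. Its part in the result was not tested further.

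Chromatin modifiers and DNA repair genes lay on the same side. The 22 measured modifiers had a median of 0.19, with 16 above 0 (72.7%, against 45.0% of all genes). At an unadjusted p below 0.05, 1 was higher (4.55%, against 2.52% of all genes). That 1 was KAT2B (PCAF), an acetyltransferase, at 6.58, 6.60 and 6.63 in ERα(-) and 6.85, 7.11 and 6.91 in ERα(+), with a difference of 0.36 ± 0.16 (SE). TET2, which oxidises methylcytosine, was at 7.03, 7.79 and 7.38 in ERα(-) and 7.70, 8.08 and 7.67 in ERα(+) and ATRX, a remodeller of heterochromatin, at 7.14, 8.47 and 7.54 in ERα(-) and 8.03, 8.62 and 8.04 in ERα(+). In both, ERα(-) replicate 2 lay above at least 1 ERα(+) array. The differences of 0.42 and 0.51 became 0.05 and -0.08 with the principal component as a covariate. The 12 DNA repair genes had a median of 0.16. Among them TP53BP1, which steers break repair toward end joining, was at 6.87, 7.10 and 7.09 in ERα(-) and 7.34, 7.33 and 7.23 in ERα(+) and differed by 0.28 ± 0.13 (SE). RAD50 and NBN, partners in the MRN complex, differed by 0.37 ± 0.24 (SE) and 0.36 ± 0.23 (SE). With the component in the fit both turned sign, to -0.08 and -0.03. The medians of the modifiers and of the repair genes turned to -0.02 and -0.03. That fit also takes out part of the ERα difference, so no conclusion is drawn from these turns.

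Ribosomal and mitochondrial genes lay slightly below 0. Of 53 cytosolic ribosomal protein genes 11 lay above 0 (20.8%, against 45.0% of all genes), the median was -0.09, and 0 stood at an unadjusted p below 0.05. The 73 mitochondrial ribosomal protein genes had a median of -0.06. Of them 2 were lower at that threshold (2.74%, near the 2.81% of all genes), MRPL54 and MRPL23 (-0.36 ± 0.15 (SE)). Respiratory genes named from the oxidative phosphorylation list, UQCRC1 and CYC1 of complex III, differed by -0.30 ± 0.14 (SE) and -0.27 ± 0.16 (SE). The 23 small Cajal body RNAs, which guide modification of spliceosomal RNA, had a median of -0.22, 3 above 0, with SCARNA23 at -0.53 ± 0.21 (SE). With the principal component as a covariate these medians lay between -0.02 and 0.01.

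Genes of hypoxia and glycolysis had a median of -0.19, and 2 of 13 lay above 0. The spread used to test them depended on the control array described above. BNIP3, a mitophagy receptor induced by low oxygen, was at 9.10, 9.23 and 9.11 in ERα(-) and 8.80, 8.67 and 8.58 in ERα(+), so that every ERα(+) array lay below every ERα(-) array. In control ERα(-) it was at 11.60, 8.49 and 8.57. Its difference of -0.46 had an SE of 0.57 and an unadjusted p of 0.431 with all 12 arrays, and an SE of 0.14 and an unadjusted p of 0.00545 without control ERα(-) replicate 1. VEGFA, the angiogenic factor, was at 7.49, 6.96 and 7.46 in ERα(-) and 7.16, 6.55 and 6.90 in ERα(+), and its unadjusted p went from 0.322 to 0.0369 in the same way. EGLN3, an oxygen-sensing hydroxylase, was at 4.10, 3.87 and 4.63 in ERα(-) and 3.78, 3.88 and 3.71 in ERα(+), with an unadjusted p of 0.0808 and 0.0402. Without that control array, 3 of the 13 were lower at an unadjusted p below 0.05, against 0 with it, and 1 (BNIP3) with the 6 shMOF arrays alone. Of all genes, 2.94% were lower without that control array and 2.62% with the 6 shMOF arrays alone. NDRG1, a hypoxia-induced gene, was at 6.63, 5.16 and 6.61 in ERα(-) and 5.56, 5.51 and 5.63 in ERα(+): replicates 1 and 3 of ERα(-) were high and replicate 2 was the lowest of all 6. The control median of the list was -0.12 with all arrays and 0.45 without the array, and for the unfolded protein and ATF4 list it was -0.26 and 0.09. No direction is read from the control values of these 2 lists.

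The remaining lists are given in brief. Immediate early genes had a median of -0.07 over 23, with KLF2, a Krüppel-like transcription factor, at 5.94, 5.98 and 6.0 in ERα(-) and 5.72, 5.65 and 5.66 in ERα(+) and a difference of -0.30 ± 0.11 (SE) without overlap. The anti-apoptotic BCL2A1 was dim at 3.50, 3.78 and 3.51 in ERα(-) and 3.45, 3.16 and 3.02 in ERα(+) and differed by -0.39 ± 0.14 (SE). FOXF2, a forkhead factor of mesenchyme, was at 6.96, 5.93 and 7.0 in ERα(-) and 6.20, 6.0 and 5.99 in ERα(+), where 2 ERα(-) arrays were high and replicate 2 was not. Cell cycle genes numbered 42 with a median of -0.06 and 0 at an unadjusted p below 0.05. Cholesterol synthesis had a median of -0.16 over 14 genes, and 0.10 without ERα(-) replicate 2. The 11 metallothioneins, which bind zinc and copper, had a median of -0.26, with 9 below 0 and 1, MT1M, lower at an unadjusted p below 0.05, and a median of -0.27 with the component in the fit. MT1L, the 1 farthest below 0, is annotated as a transcribed pseudogene. It was at 6.26, 3.50 and 5.77 in ERα(-) and 4.35, 3.99 and 4.02 in ERα(+). Among markers of other cell types, 10 immune and endothelial genes had a median of -0.09, with NKG7 at -0.37 ± 0.12 (SE), and 6 stromal genes of -0.11.

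**Figure D4:**
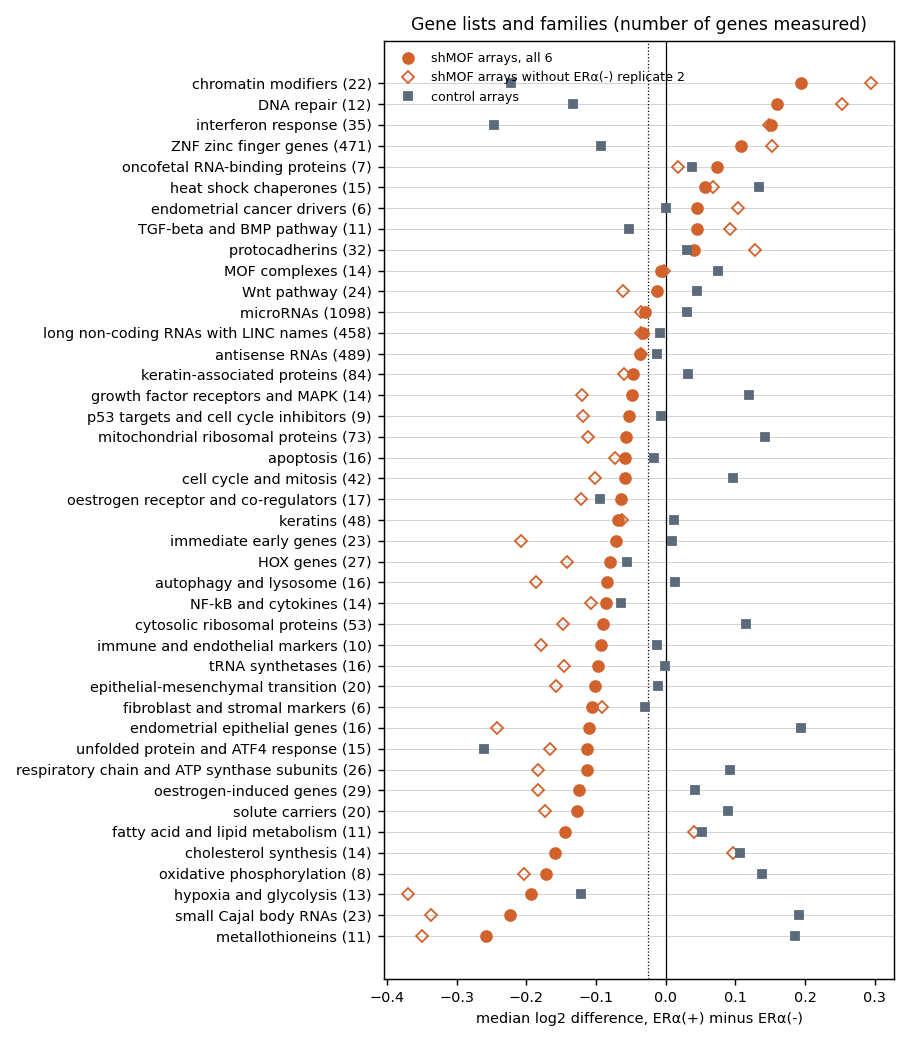
Median log2 difference, ERα(+) minus ERα(-) (horizontal axis), of each gene list or family with at least 6 measured genes (vertical axis, number measured in brackets). Filled circles are the 6 shMOF arrays, open diamonds the shMOF arrays without ERα(-) replicate 2 and squares the control arrays. The dotted line is the median of all genes in shMOF arrays, -0.03. The interferon list stays at 0.15 without that array, whereas cholesterol synthesis goes from -0.16 to 0.10. The control squares of hypoxia and glycolysis and of the unfolded protein and ATF4 response rest on control ERα(-) replicate 1.

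Leaving out ERα(-) replicate 2 was the 1 omission that gave calls in this comparison. Then 11 of 14884 genes (0.0739%) passed limma's adjusted p, and 2587 stood at an unadjusted p below 0.05. Removing the array also removes most of the spread of its group, so these genes are given as values. Those higher in ERα(+) were IFI44L (1.45), DDX60 (1.32), PCLO, a presynaptic scaffold (1.21), CNKSR2, a scaffold of Ras signalling (1.14), and CSRNP3 (1.05). Those lower were MIR3127 (-2.04), MT1L (-1.90), G0S2, an inhibitor of fat breakdown (-1.59), LCN2, an iron-binding lipocalin (-1.15), DMBT1, a mucosal scavenger protein (-1.02), and CDA, cytidine deaminase (-0.97). With all arrays, G0S2 was at 9.61, 7.40 and 9.50 in ERα(-) and 8.21, 7.74 and 7.95 in ERα(+). LCN2 was at 8.74, 6.96 and 8.47 in ERα(-) and 7.60, 7.18 and 7.59 in ERα(+). In both genes ERα(-) replicate 2 was the lowest of the 6 arrays, below every ERα(+) array.

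**Figure D5:**
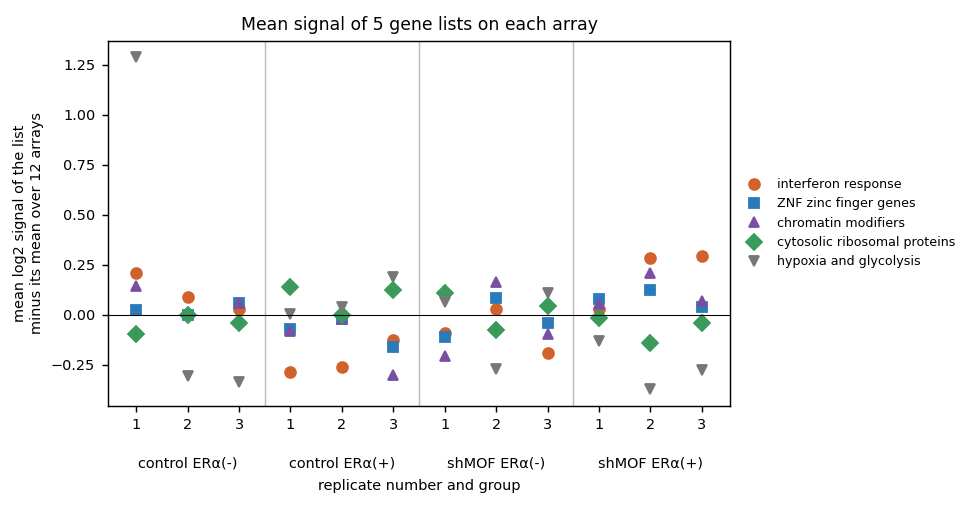
Mean log2 signal of 5 gene lists on each array, minus the list's mean over the 12 arrays (vertical axis), by group and replicate (horizontal axis). In shMOF ERα(-), replicate 2 differs from replicates 1 and 3 in all 5 lists, as in chromatin modifiers at 8.38 against 8.01 and 8.12 before centring. Control ERα(-) replicate 1 is far above the rest in hypoxia and glycolysis, at 8.44.

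The test of whether the condition acted alike in shMOF and control arrays gave no call with all arrays either. The interaction had 0 genes (0.00%) at a limma adjusted p below 0.05 and 2685 (18.0%) at an unadjusted p below 0.05, against 12.7% for the condition in control arrays. These counts depended on single arrays and on the fit: 570 interactions were called without shMOF ERα(-) replicate 2, 11 without shMOF ERα(+) replicate 1, 1 when control ERα(+) replicate 3 was omitted and 3258 with array quality weights. With the first principal component in the fit, the 2685 became 758. Leaving out 1 array moved the 2685 by over 1.5 times in 4 cases, to 4036 without shMOF ERα(-) replicate 2, 1555 without shMOF ERα(-) replicate 1, 1494 without shMOF ERα(+) replicate 2 and 1719 when control ERα(+) replicate 3 was the array omitted. Across genes the 2 differences correlated at -0.49, and 66.9% of genes had opposite signs. Both comparisons also lie along the first principal component in opposite directions, and its part in this was not tested. SOBP had an interaction of 1.21 with an adjusted p of 0.0696, from -0.72 in control and 0.49 in shMOF arrays. HSD52, at 1.66, and OSBPL6, at 0.87, followed among the higher genes, with HERC5 (1.28) and IFIT1 (1.30). The lower ones were MIR4653 at -1.64, TGFB1I1, a focal adhesion co-regulator, at -0.98, SPATC1L at -0.95, TRIOBP, an actin-bundling protein, at -0.87 and MIR149 at -0.78.

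By position, genes on chromosomes 19, 22, 16 and 17 had the lowest medians, -0.10, -0.10, -0.09 and -0.09, and chromosomes 13 and 4 the highest, both 0.04. With the principal component as a covariate the medians of chromosomes 19, 22, 16 and 17 lay within 0.01 of 0. By level, the brightest 2977 genes had a median of 0.02 and the dimmest 2977 one of -0.04.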

How the data were processed

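Values were deposited by the authors as log2 signals, for which the submitters' processing notes name Affymetrix Expression Console 1.4.1 and the RMA method. That method evens the distributions between arrays and can compress differences of dim genes. The genome build is not given in the sources used here. Of 53617 probe sets, 16098 had 1 symbol, 0 had several and 37519 are unnamed here. The brightest probe set stood for each of the 779 genes with more than 1, leaving 14884 genes without a filter. Array medians were 4.53 to 4.59, and 3 arrays a group limit the precision: with 3 against 3, the smallest two-sided p of an exact permutation test is 0.1.

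A mean per group was fitted over the 12 arrays with limma 3.58.1 in R 4.3.3 (two-sided, 8 residual and 5.60 prior degrees of freedom, Benjamini-Hochberg adjustment, called below 0.05). The script was tested on simulated data. Named genes were KAT8, ESR1, up to 15 per direction by smallest p among non-overlapping genes at or above the median level, up to 4 per list, 2 per family and 5 per direction of the interaction. Others were chosen after their values were seen: the remaining interferon and hypoxia members, SHISA3, CARM1, MT1M, PGR, GREB1, TFF1, cell markers, and genes called without 1 array. Members and lists were chosen with earlier results of these data known. Deviations of same-numbered shMOF arrays from their group means correlated at 0.26, 0.45 and 0.05. Those of different-numbered arrays correlated from -0.42 to 0.21. The labels do not say that the numbers mark pairs, and this was not tested further. The main fit left the arrays unpaired, and a replicate block was fitted as an alternative. Sequences came from RefSeq tables, where 10749 of the genes had a promoter. Figures were drawn with matplotlib 3.10.9.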

Additional observations from a re-analysis of the deposited data

How the results depend on the processing

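Of 24 alternatives, 12 left out 1 array. With array quality weights, which gave shMOF ERα(-) replicate 3 a weight of 8.86, the count of called genes went from 0 to 1918, that at an unadjusted p below 0.05 from 793 to 4912, called interactions from 0 to 3258, interactions at an unadjusted p below 0.05 to 5734 and higher ZNF genes from 35 to 146. With the first principal component in the model the counts at an unadjusted p below 0.05 were 515 genes, 758 interactions and 10 ZNF genes. Against a 1.2-fold threshold they were 71, 841 and 1. A random block for the sample code's letter gave 5 called interactions. The replicate block gave 0 called genes, 1097 at an unadjusted p below 0.05, 2 called interactions and 3001 at an unadjusted p below 0.05. It changed no other call.

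Leaving out 1 array gave 0 to 11 called genes (11 without shMOF ERα(-) replicate 2), 436 to 2587 at an unadjusted p below 0.05, 0 to 570 called interactions (the most without the same array), 1494 to 4036 interactions at an unadjusted p below 0.05 and 5 to 101 higher ZNF genes. The count of higher interferon members lay between 9 and 18 over all alternatives. The share of higher genes was 47.3%, 59.1% with arrays shifted to 1 median and 57.7% against the 1.2-fold threshold.

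With the principal component as a covariate the sign turned in NBN (-0.033), RAD50 (-0.082), ATRX (-0.079), MIR4653 (0.080), TGFB1I1 (0.10). It also turned in LUM (0.10, with array quality weights) and PAX8 (-0.017, after quantile normalization again). Over the omissions of 1 array the difference ran from -0.095 to 0.086 in KAT8, from -0.25 to 0.010 in LUM, from -0.15 to 0.088 in IFITM3, from -0.093 to 0.24 in BST2, from -0.10 to 0.11 in PAX8, from -0.087 to 0.010 in DCN, from -0.28 to 0.019 in PGR. The cause of these turns was not tested.

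Of 2510 named gene values under the alternatives, 2414 kept their sign and were not called, and 79 were called, 68 with array weights and 11 without shMOF ERα(-) replicate 2. Of 1008 list medians, 52 moved by over 1 SD of the list's array means. Dim genes are limited by RMA's compression, and the cause of the shifts above was not tested.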
